A study of Homo sapiens with 8 samples.

Results

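In LNCaP prostate cancer cells with lowered or re-expressed (wild-type or catalytically dead) METTL3, 10 genes of the NF-kappaB response were measured by RNA sequencing. They were found by symbol in the count table, which held all 10 among its 27140 genes. The list has the chemokines CCL20, CXCL1, CXCL2 and CXCL3, the enzyme PTGS2, the inhibitors NFKBIA and TNFAIP3, the subunit RELB, the survival factor BIRC3 and the adhesion molecule ICAM1. The list was selected on measured values: CCL20 was picked for its rise in the hairpin lines over the control, and PTGS2 for its fall between the rescue lines. Both are therefore described here without any test. The other 8 were added as known NF-kappaB genes after results of these data had been seen. Of the 10, 7 had enough counts to be tested, among 15289 such genes in all, and CXCL1, CXCL2 and CXCL3 did not.

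LNCaP is an established line from a human prostate adenocarcinoma, and METTL3 is the enzyme that places m6A, a methyl group on adenosine, on messenger RNA. There were 4 stable lines, made with lentivirus and kept under puromycin at 1 µg/ml, with 2 RNA-seq libraries each: a control hairpin with vector (control), a hairpin to METTL3 with vector (knockdown), that hairpin with resistant wild-type METTL3 (wild-type rescue), and that hairpin with resistant, catalytically dead METTL3 (mutant rescue). Cells of all 4 groups had been through transduction and selection, no group is an untouched parental line, and the labels do not say whether a line was a clone or a pool. They also leave unsaid whether the libraries of a line were separate cultures, so each p-value measures the spread between these libraries, which may be technical. That spread was small. Its common coefficient of variation beyond counting noise was 1.40%. Chi-square per degree of freedom between the libraries of a group was 1.22 to 1.37, where 1 is counting noise alone.

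NF-kappaB is a family of transcription factor dimers (RELA, RELB, REL, NFKB1, NFKB2) that IkappaB proteins such as NFKBIA hold in the cytoplasm. Signals from receptors of tumour necrosis factor, interleukin 1 or microbial products activate kinases that mark IkappaB for destruction, and the freed dimers enter the nucleus and switch on chemokines, adhesion molecules, survival factors and their own inhibitors. In prostate cancer the pathway is known for its links to inflammation and to growth with little androgen.

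The dimers act through a short DNA element, the kappaB site, so the promoters of the members are shown first. RefSeq promoter sequences (GRCh38.p14) were at hand for 9 of the 10 genes, RELB being the one without an entry. The 250 bases before each start were searched on both strands for the loose form GGGNNNNNCC and for the stricter kappaB consensus. The latter also requires a purine after GGG and pyrimidines before CC, so its matches are a subset of the loose ones. All 9 promoters held the loose form, as did 54.4% of 35116 promoters. The consensus was found in 7 of the 9 and in 10.0% of all promoters. It was absent from the 250 bases of PTGS2 and ICAM1, which held 4 and 2 loose matches. A missing consensus match does not show that a promoter lacks a kappaB site. The members were listed as known NF-kappaB targets, so this share follows in part from the choice, and a match is a description, not a site shown to be bound. One window of 50 bases is given for each of the 7 genes, read 5′ to 3′ on the strand of the gene, with the match (on either strand) in capitals. The coordinates belong to GRCh38.p14, whereas the counts were made on hg19.
CCL20, plus strand, chr2:227813743-227813792: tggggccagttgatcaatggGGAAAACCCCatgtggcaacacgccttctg
CXCL1, plus strand, chr4:73869294-73869343: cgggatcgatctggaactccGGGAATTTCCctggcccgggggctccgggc
CXCL2, minus strand, chr4:74099244-74099293: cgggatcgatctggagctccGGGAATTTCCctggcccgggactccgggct
CXCL3, minus strand, chr4:74038739-74038788: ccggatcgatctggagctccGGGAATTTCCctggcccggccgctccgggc
NFKBIA, minus strand, chr14:35404801-35404850: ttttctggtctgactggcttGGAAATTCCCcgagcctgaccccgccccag
TNFAIP3, plus strand, chr6:137867172-137867221: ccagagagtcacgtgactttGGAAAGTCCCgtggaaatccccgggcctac
BIRC3, plus strand, chr11:102317265-102317314: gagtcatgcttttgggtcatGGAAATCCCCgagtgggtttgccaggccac
The CCL20 match began 79 bases before the start. Those of CXCL1 and CXCL3 began at the same distance, and that of CXCL2 began 78 bases before its start. The match of NFKBIA began 81 bases before the start. CXCL1, CXCL2 and CXCL3 each had a second, overlapping match on the other strand, beginning 78, 77 and 78 bases before the start. TNFAIP3 had a pair of matches that do not overlap, beginning 67 and 55 bases before the start. The second of these is in lower case in the window above. The BIRC3 pair began 199 and 135 bases before the start. The windows of CXCL1, CXCL2 and CXCL3 carry the same letters over the match, and these genes are close paralogs.

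The libraries held 15200343 to 17893241 counts. METTL3 was measured as a check of the labels, in CPM (counts over the scaled library total, with one multiplier for all libraries). It stood at 68.4 ± 0.0784 (control, SD, n = 2), 28.8 ± 3.64 (knockdown), 317 ± 10.8 (wild-type rescue) and 333.7 ± 0.632 (mutant rescue), where hairpin-resistant and own transcripts are counted together. The rescue lines thus exceeded the control in METTL3, at 4.64 times its level with the wild-type form and 4.88 times with the mutant. All 10 luminal prostate markers examined were expressed in every library, and their summed level was 9556 and 9604 CPM in the control libraries and 7708 to 8016 CPM in the 6 others. The 10 leukocyte markers summed to 18.6 to 28.7 CPM, with CD68 alone at 15.5 to 26.2 CPM, and 8 of the 10 lay under 1 CPM in each library. The 6 fibroblast markers summed to 80.2 to 106 CPM, nearly all of it COL1A1 (76.3 to 102.8 CPM), while COL1A2 had a count of 0 in every library. The part of these levels in the results below was not tested.

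CCL20, the ligand of the receptor CCR6 on lymphocytes and dendritic cells, was low in the control and several-fold higher in each hairpin line. It measured 8.84 and 8.38 CPM (control), 50.2 and 51.9 (knockdown), 55.1 and 57.7 (wild-type rescue) and 37.2 and 36.9 (mutant rescue). No library of one group overlapped another group, and the order of the means was wild-type rescue, knockdown, mutant rescue, control. With 2 libraries a group, lack of overlap was common: on knockdown 35.1% of all tested genes lay wholly above the control and 37.4% wholly below it, and in the 5 other comparisons each share was between 28.3% and 39%. The raw counts behind these levels were 133 to 140 in the control and 562 to 1044 elsewhere. The fold over the control was 5.91 in the knockdown (log2 2.56, SE 0.08), 6.55 in the wild-type rescue (log2 2.71, SE 0.08) and 4.30 in the mutant rescue (log2 2.10, SE 0.09). The wild-type rescue thus lay farther from the control than the knockdown did, by a log2 difference of 0.15 (SE 0.05), which was 0.03 once the dependence of fold change on gene length was removed. The mutant rescue was at 0.656 times the wild-type rescue (log2 difference -0.61, SE 0.06). Because RNA was taken in bulk, fewer cells making a transcript and less transcript per cell cannot be told apart.

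**Figure D1:**
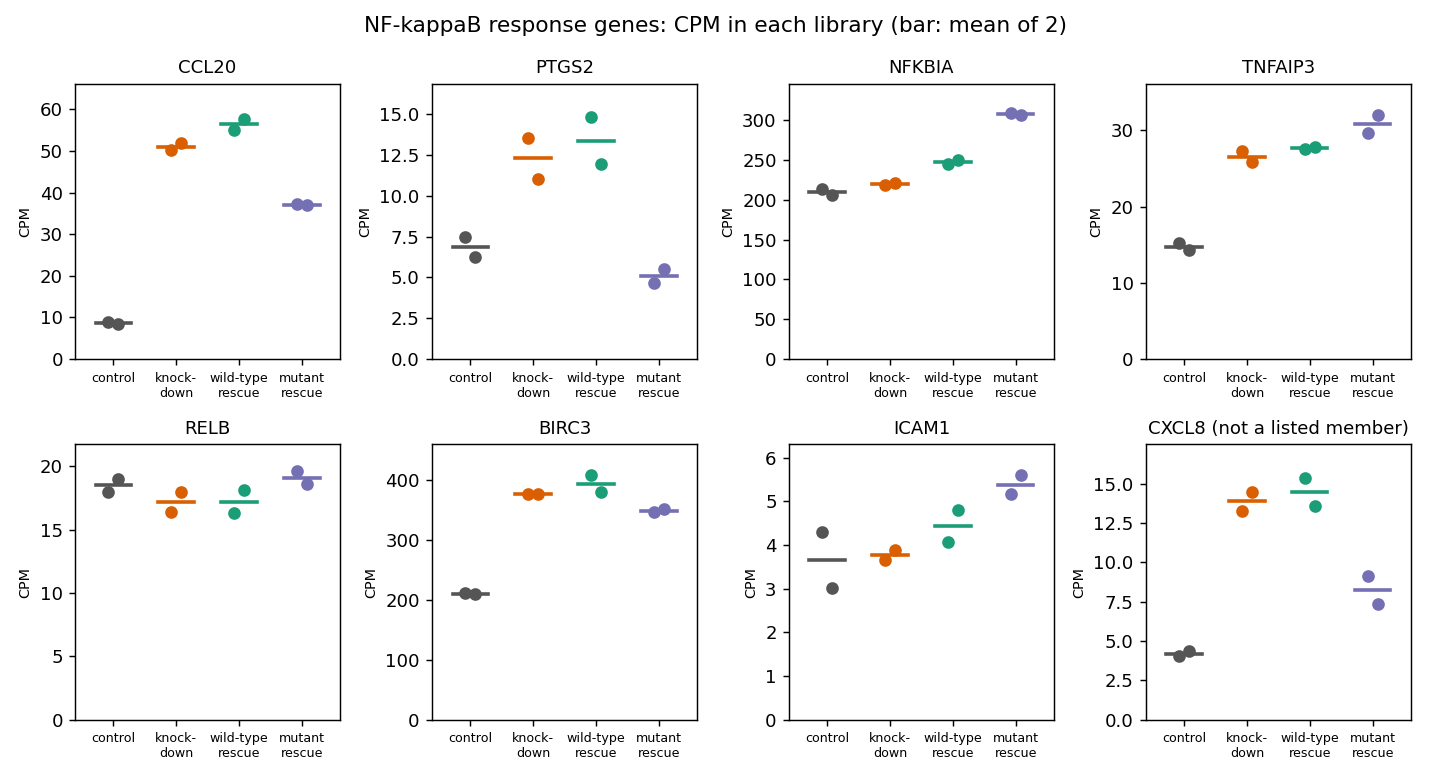
Level in CPM (linear axis from 0) of the 7 members with enough counts and of CXCL8 in each of the 8 libraries, with a bar at the mean of the 2 libraries. CCL20, BIRC3 and TNFAIP3 are higher in all 3 hairpin lines than in the control, whereas PTGS2 in the mutant rescue (4.63 and 5.54 CPM) is under both control libraries (7.45 and 6.24 CPM).

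The 3 CXC chemokines of the list, which attract neutrophils through CXCR2, were hardly expressed. CXCL1 had 0 to 4 counts per library, CXCL2 1 to 4 and CXCL3 0 to 3. CXCL2 had 4 counts in each wild-type rescue library, beside 1 or 2 in the control and knockdown libraries. A count of 0, as seen for CXCL1 and CXCL3, allows up to 3 counts, or 0.166 to 0.198 CPM depending on the library. At this depth only a large change of the 3 genes could have been detected. When the filter on low counts was lifted, the adjusted p of these genes ranged from 0.456 to 1 in the 6 comparisons. The 3 genes are paralogs, and whether reads were split among them was not tested.

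CXCL8 (interleukin 8), a neutrophil chemokine outside the list, was measurable and is given for comparison. Its libraries stood at 4.04 and 4.35 CPM (control), 13.3 and 14.5 (knockdown), 15.3 and 13.6 (wild-type rescue) and 9.13 and 7.37 (mutant rescue). Only the knockdown and the wild-type rescue overlapped. CXCL8 rose on knockdown by 1.72 on the log2 scale (SE 0.14, edgeR adjusted p = 3.82e-24) and differed by -0.81 between mutant and wild-type rescue (SE 0.12, adjusted p = 1.12e-09). CXCL10, an attractant of T cells, went from 2.33 to 2.65 CPM in the control to 6.35 to 7.73 in the hairpin lines, and its knockdown rise was 1.59 (SE 0.18, adjusted p = 1.09e-14). Not all chemokines of the pathway lists rose. CCL2, with a control mean of only 2.62 CPM, was lower than that in both rescues. Its log2 change was -1.10 for wild-type METTL3 (SE 0.29, adjusted p = 0.000682) and -1.48 for the mutant (SE 0.31, 1.66e-05). CXCL16 had a called fall on knockdown, with a log2 change of -0.15. The receptors of CCL20 and CXCL8 were near 0: CCR6 had 0 to 2 counts per library, CXCR1 0 to 1 and CXCR2 0 to 4.

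PTGS2 (cyclooxygenase 2), the inducible enzyme that starts prostaglandin synthesis, was higher in the knockdown and the wild-type rescue and low in the mutant rescue. Its levels were 7.45 and 6.24 CPM (control), 13.5 and 11.1 (knockdown), 14.8 and 11.9 (wild-type rescue) and 4.63 and 5.54 (mutant rescue), from 70 to 240 counts per library. The knockdown and wild-type rescue overlapped, and every library of the other groups was lower than both. The knockdown lay above the control by 0.85 on the log2 scale (SE 0.13) and the wild-type rescue by 0.96 (SE 0.12), while the mutant rescue differed from it by -0.42 (SE 0.16). Between the rescues the log2 difference was -1.38 (SE 0.13) and between the mutant rescue and the knockdown -1.28 (SE 0.14). The wild-type rescue and the knockdown differed by 0.10 (SE 0.11), a value that became -0.03 without knockdown replicate 2 and -0.050 without wild-type rescue replicate 1.

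Among 11 tested genes of prostaglandin synthesis and breakdown, 2 rose and 4 fell on knockdown, beside 22.9% and 25.1% of all tested genes. Between the rescues (mutant over wild-type) 1 rose and 2 fell, beside 21.0% and 20.3%. Nothing is read from these counts. PLA2G4A, the cytosolic phospholipase that frees arachidonic acid for PTGS2, had 8.59 and 7.12 CPM (control), 24.7 and 23.2 (knockdown), 27.8 and 26.6 (wild-type rescue) and 15.5 and 15.8 (mutant rescue). It rose on knockdown by 1.61 (SE 0.10, edgeR adjusted p = 2.65e-32) and differed by -0.79 between mutant and wild-type rescue (SE 0.09, adjusted p = 2.77e-15). PLA2G2A, a secreted phospholipase, differed in the opposite direction, at -0.32 on knockdown (SE 0.07, adjusted p = 1.35e-05) and 0.43 between the rescues (SE 0.06, adjusted p = 3.50e-11). ABCC4, a transporter that exports prostaglandins, fell by 0.76 on knockdown (SE 0.02, adjusted p = 1.47e-67). The prostaglandin E2 receptor PTGER4 was at 3.08 to 5.87 CPM and PTGER2 had at most 1 count in a library.

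NFKBIA (IkappaB alpha), the inhibitor that retains NF-kappaB in the cytoplasm and is itself a target, was the most abundant member per kilobase of gene length, at 134 CPM per kilobase in the control and 196 in the mutant rescue. Its libraries stood at 213 and 205 CPM (control), 219 and 221 (knockdown), 245 and 249 (wild-type rescue) and 309 and 307 (mutant rescue). The 4 groups did not overlap, but the control and the knockdown lay close together. The mutant rescue exceeded the control by 0.56 on the log2 scale (SE 0.03, edgeR adjusted p = 3.26e-45), the knockdown by 0.49 (SE 0.03, 2.15e-39) and the wild-type rescue by 0.32 (SE 0.03, 5.92e-23). The wild-type rescue exceeded the knockdown by 0.17 (SE 0.03, adjusted p = 6.17e-08) and the control by 0.24 (SE 0.03, 2.87e-14). The knockdown difference from the control was only 0.07 (SE 0.03, adjusted p = 0.0282), and it was not called with DESeq2 (0.0859) or without control replicate 2 (0.348), knockdown replicate 1 (0.0655) or knockdown replicate 2 (0.105).

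TNFAIP3 (A20), an enzyme that edits ubiquitin chains and ends NF-kappaB signalling, was higher in all 3 hairpin lines. It had 15.2 and 14.3 CPM (control), 27.3 and 25.9 (knockdown), 27.5 and 27.8 (wild-type rescue) and 29.6 and 32.0 (mutant rescue). Every hairpin library was above both control libraries. The log2 rise over the control was 0.85 in the knockdown (SE 0.08, edgeR adjusted p = 2.57e-17), 0.91 with wild-type METTL3 (2.31e-19) and 1.06 with the mutant (SE 0.08, 8.72e-25). Between the rescues TNFAIP3 differed by 0.15 (SE 0.07, adjusted p = 0.0720), and the wild-type rescue from the knockdown by 0.06 (SE 0.07, 0.640), neither past the threshold. The mutant rescue passed it against the knockdown at 0.21 (SE 0.07, adjusted p = 0.00902), but not with DESeq2 (0.102), without knockdown replicate 2 (0.0865) or without mutant rescue replicate 2 (0.151). TNFAIP3 and ICAM1 are overlapped by antisense genes in GENCODE 29 (AL357060.1, AC011511.2 and AC011511.5), and the strand setting of the counting is not given in the sources used here, so reads of the partners cannot be told apart.

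RELB, the subunit of the non-canonical branch, passed the test in none of the 6 comparisons. Its libraries ranged from 16.3 to 19.6 CPM and the groups overlapped except where the mutant rescue (19.6 and 18.6) lay above the knockdown (16.4 and 18.0) and the wild-type rescue (16.3 and 18.1). The edgeR adjusted p lay between 0.145 and 0.947, and the log2 difference of the mutant rescue from the knockdown was 0.15 (SE 0.09).

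BIRC3 (cIAP2), a ubiquitin ligase that protects from cell death and takes part in signalling from tumour necrosis factor receptors, was measured from 3325 to 6865 counts per library. Its counts were the highest of the members except in control replicate 1, where NFKBIA had 3375 against 3334. BIRC3 had 211 and 209 CPM (control), 377 and 376 (knockdown), 408 and 379 (wild-type rescue) and 347 and 351 (mutant rescue). The control was lowest, the mutant rescue next, and the knockdown and wild-type rescue highest, with no overlap between groups. BIRC3 rose over the control by 0.84 in the knockdown (SE 0.03, edgeR adjusted p = 1.43e-66), 0.90 with wild-type METTL3 (8.29e-71) and 0.73 with the mutant (SE 0.03, 4.12e-58). The mutant rescue differed from the wild-type rescue by -0.17 (SE 0.02, adjusted p = 5.82e-10). Its difference from the knockdown was -0.11 (SE 0.02, adjusted p = 4.05e-05), which came to -0.02 (0.610) with the length trend removed. The difference of 0.06 between wild-type rescue and knockdown (SE 0.02, adjusted p = 0.0438) was fragile. It was not called with DESeq2 (0.255), DESeq2 size factors (0.0628), no filter on low counts (0.114) or only the groups compared (0.105), nor without control replicate 1 (0.0641) or 2 (0.0657) or knockdown replicate 1 (0.131) or 2 (0.137). Without wild-type rescue replicate 1 it came to 0.01 (0.837).

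ICAM1, the adhesion molecule that binds leukocyte integrins, had only 48 to 89 counts per library. It had 4.30 and 3.02 CPM (control), 3.67 and 3.88 (knockdown), 4.06 and 4.81 (wild-type rescue) and 5.16 and 5.60 (mutant rescue). Only the mutant rescue lay above every other library. Its log2 difference was 0.52 from the knockdown (SE 0.18, edgeR adjusted p = 0.0101) and 0.56 from the control (SE 0.18, 0.00539). DESeq2 called neither (0.115 and 0.0765), and without mutant rescue replicate 2 neither was called (0.0907 and 0.0593). The first also ended without knockdown replicate 1 (0.0785) and the second without control replicate 2 (0.208). The wild-type rescue differed from the knockdown by 0.24 (adjusted p = 0.372) and the knockdown from the control by 0.04 (SE 0.19, 0.883), or -0.19 without control replicate 2 (0.547).

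**Figure D2:**
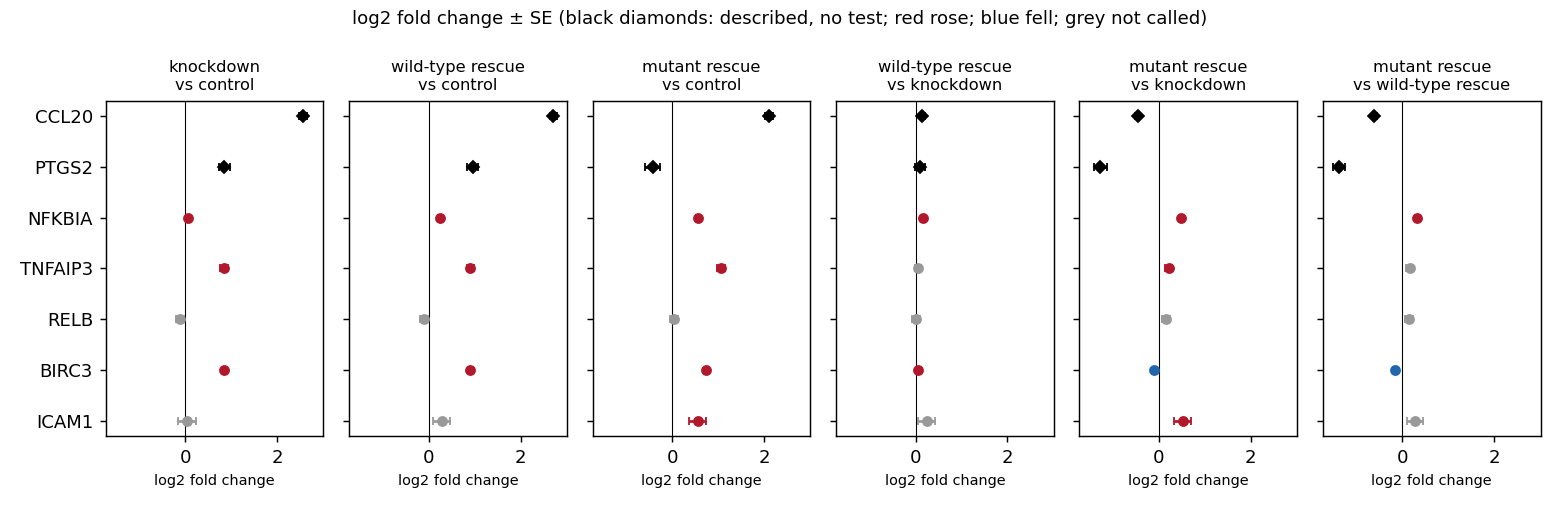
Log2 fold change with its SE for the 7 members with enough counts in the 6 pairwise comparisons of the 4 lines; black diamonds mark CCL20 and PTGS2, given without a test, and colours mark the calls of the others. CCL20 lies at 2.10 to 2.71 against the control in all 3 hairpin lines, while PTGS2 lies at 0.85 in the knockdown and at -0.42 in the mutant rescue.

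Counted by comparison, and leaving CCL20 and PTGS2 aside, 5 members could be called at an adjusted p under 0.05. On knockdown 3 of the 5 rose (NFKBIA, TNFAIP3, BIRC3) and 0 fell, where 22.9% of all tested genes rose and 25.1% fell. In the wild-type rescue against the knockdown 2 rose (NFKBIA, BIRC3) and 0 fell, where 10.8% of all tested genes rose and 13.2% fell. In the mutant rescue against the knockdown 3 rose (NFKBIA, TNFAIP3, ICAM1) and 1 fell (BIRC3), beside 25.9% and 25.8% of all tested genes. Between the rescues, mutant over wild-type, 1 rose (NFKBIA) and 1 fell (BIRC3), beside 21.0% and 20.3%. Against the control, the wild-type rescue had 3 that rose and 0 that fell (23.8% and 25.5% of all tested genes), and the mutant rescue 4 that rose and 0 that fell (29.1% and 29.7%). Since the list was put together with results known, nothing is read from these counts.

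The order of the group means thus differed between members. CCL20, BIRC3 and PTGS2 had their highest mean in the wild-type rescue, whereas NFKBIA, TNFAIP3, RELB and ICAM1 had theirs in the mutant rescue. The former rests on small differences from the knockdown. That of CCL20 (0.15) was 0.03 with the length trend removed, that of BIRC3 (0.06) was fragile and that of PTGS2 (0.10) could change sign. Between the rescues TNFAIP3, RELB and ICAM1 were not called (edgeR adjusted p = 0.0720, 0.208 and 0.205). Of the 7 tested members, PTGS2 was the one whose mean in the mutant rescue was under that of the control. Per kilobase, the control means ranked NFKBIA (134 CPM), BIRC3 (30.4), CCL20 (10.2), RELB (8.12), TNFAIP3 (3.12), PTGS2 (1.52) and ICAM1 (1.13). In the knockdown CCL20 (60.6) stood above BIRC3 (54.5), and in the mutant rescue below it (44.0 against 50.5).

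The wider pathway was described with 115 further genes in 5 lists, of which 89 had enough counts. The counts of these lists are to be read beside the shares over all tested genes, 22.9% that rose and 25.1% that fell on knockdown and 21.0% and 20.3% between the rescues. On knockdown 25 of the 89 rose and 28 fell, with a median log2 change of -0.04, beside -0.01 over all tested genes. With DESeq2 the split was 21 to 15. Between the rescues 28 rose and 10 fell (median 0.04, and 0.00 over all tested genes), and in the mutant rescue against the knockdown 37 rose and 16 fell (median 0.11), beside 25.9% and 25.8% of all tested genes. In the wild-type rescue against the knockdown 18 rose and 5 fell, beside 10.8% and 13.2%. That last count came to 8, with 4 in each direction, by DESeq2, to 14 with the length trend removed, to 11 without knockdown replicate 1 and to 10 without wild-type rescue replicate 2. Against the control, 28 rose and 23 fell in the wild-type rescue (23.8% and 25.5% of all tested genes), and 41 rose and 24 fell in the mutant rescue (29.1% and 29.7%).

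Of the 9 NF-kappaB and IkappaB proteins other than the members, 3 rose and 2 fell on knockdown, and 5 rose and 2 fell between the rescues. NFKBIZ, an IkappaB protein that acts in the nucleus as a co-activator, had 10.2 and 9.95 CPM (control), 21.1 and 20.1 (knockdown), 21.8 and 21.5 (wild-type rescue) and 13.4 and 13.8 (mutant rescue). It rose on knockdown by 1.03 (SE 0.10, edgeR adjusted p = 3.07e-18) and differed by -0.67 between mutant and wild-type rescue (SE 0.09, adjusted p = 2.32e-10). NFKB1, which gives the p50 subunit, rose on knockdown by 0.31 (SE 0.04, adjusted p = 1.02e-09) and differed by -0.26 between the rescues (SE 0.05, adjusted p = 2.15e-06). RELA, the main activating subunit, had 111 and 111 CPM (control), 103 and 106 (knockdown), 114 and 114 (wild-type rescue) and 144 and 146 (mutant rescue). BCL3, an IkappaB protein that binds p50 and p52, had the same order of groups from knockdown to mutant rescue. Between the rescues RELA differed by 0.35 (SE 0.04, adjusted p = 1.73e-16) and BCL3 by 0.50 (SE 0.05, adjusted p = 8.55e-19). REL was higher both on knockdown (0.53, SE 0.08, adjusted p = 7.69e-09) and between the rescues (0.33, SE 0.08, adjusted p = 0.000147).

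Among 29 kinases, adaptors and ubiquitin enzymes, 6 rose and 11 fell on knockdown, and 11 rose and 3 fell between the rescues. MAP3K14 (NIK), the kinase that starts the non-canonical branch in which RELB acts, was at 64.1 ± 1.34 CPM (control, SD, n = 2), 43.5 ± 0.444 (knockdown), 49.4 ± 1.07 (wild-type rescue) and 79.6 ± 2.49 (mutant rescue). Its log2 change was -0.56 on knockdown (SE 0.05, edgeR adjusted p = 4.12e-19) and 0.69 between the rescues (SE 0.05, adjusted p = 1.59e-27). OTULIN, which removes linear ubiquitin chains, differed by 0.63 between the rescues (SE 0.04, adjusted p = 3.50e-36). RIPK1 and TNIP1, a kinase and a ubiquitin-binding partner of TNFAIP3, fell on knockdown, with log2 changes of -0.56 (SE 0.09, adjusted p = 3.71e-08) and -0.52 (SE 0.04, adjusted p = 2.70e-26). TRAF6, an adaptor of interleukin 1 and Toll-like receptors, rose by 0.53 (SE 0.10, adjusted p = 2.07e-06), and BIRC2, the closest relative of BIRC3, by 0.35 (SE 0.05, adjusted p = 8.66e-10).

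Among 17 tested receptors that signal to NF-kappaB, 5 rose and 5 fell on knockdown, and 6 rose and 1 fell between the rescues. TNFRSF1A, the main receptor of tumour necrosis factor, had 78.9 and 80.9 CPM (control), 74.0 and 75.0 (knockdown), 81.3 and 84.4 (wild-type rescue) and 116 and 107 (mutant rescue), a difference between the rescues of 0.43 (SE 0.04, edgeR adjusted p = 9.73e-18). TNFRSF1B, the second receptor of that ligand, differed by 0.79 (SE 0.22, adjusted p = 0.00191) but was not called with DESeq2 (0.0576) or without mutant rescue replicate 2 (0.0588). TNFRSF21 (death receptor 6) rose on knockdown by 1.04 (SE 0.04, adjusted p = 6.38e-60) and differed by -0.32 between the rescues (SE 0.03, adjusted p = 4.02e-15). IL1R1, the interleukin 1 receptor, fell by 0.74 on knockdown (SE 0.05, adjusted p = 1.86e-27).

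Few of the ligands were expressed: 4 of 12 had enough counts, and IL6 had 0 to 2, IL1A 0 to 3 and IL1B 0 to 8 counts per library. TNF itself was at 8.59 and 7.75 CPM (control), 6.66 and 6.54 (knockdown), 8.38 and 8.62 (wild-type rescue) and 12.5 and 12.7 (mutant rescue). It was thus highest in the mutant rescue, above the wild-type rescue by 0.57 (SE 0.12, edgeR adjusted p = 1.77e-05) and above the knockdown by 0.93 (SE 0.12, adjusted p = 2.92e-11). TNFSF10 (TRAIL), a death ligand, fell by 0.84 on knockdown (SE 0.14, adjusted p = 9.00e-08).

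Among 30 tested other targets, 11 rose and 8 fell on knockdown, and 5 rose and 3 fell between the rescues. The complement component C3 rose on knockdown by 1.85 (SE 0.28, edgeR adjusted p = 3.75e-06), from 1.71 and 1.39 CPM to 6.83 and 4.26. The growth factor CSF1 fell by 1.05 (SE 0.12, adjusted p = 2.31e-14). IRF1, a transcription factor shared with the interferon response, had 57.8 and 52.6 CPM in the mutant rescue and 33.8 and 36.4 in the wild-type rescue, a difference of 0.65 (SE 0.06, adjusted p = 9.92e-20). SOD2, the mitochondrial superoxide dismutase, differed by 0.40 (SE 0.04, adjusted p = 3.36e-18), and CFLAR, an inhibitor of caspase 8, by -0.33 (SE 0.05, adjusted p = 6.07e-08).

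**Figure D3:**
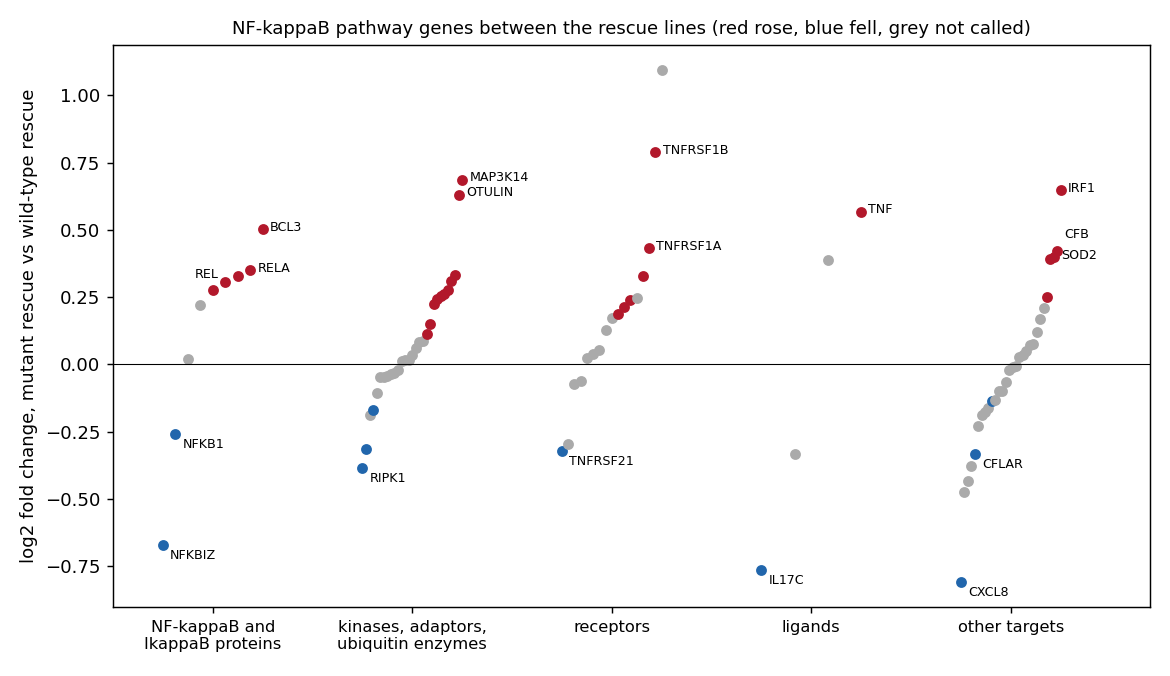
Log2 fold change of the mutant against the wild-type rescue for the 89 tested pathway genes in their 5 lists, ordered within each list, with red for genes that rose, blue for genes that fell and grey for those not called. Of the 89 genes 28 rose and 10 fell, with MAP3K14 (0.69) and IRF1 (0.65) among the former and CXCL8 (-0.81) and NFKBIZ (-0.67) among the latter.

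Knockdown against control and mutant against wild-type rescue have no library in common, so their calls can be set side by side. Of the 25 pathway genes that rose on knockdown, 7 (28%) also rose and 5 (20%) fell in the mutant rescue, which is 25% of the 28 and 50% of the 10 called there. Among all 3506 tested genes that rose on knockdown, 22.8% rose and 27.5% fell there. Of the 28 pathway genes that fell on knockdown, 13 (46.4%) rose and 3 (10.7%) fell in the mutant rescue. These are 46.4% of the 28 and 30% of the 10 called there. Of all 3831 genes that fell on knockdown, 27.3% rose and 23.2% fell. These are 32.6% of all tested genes that rose there and 28.6% of all that fell. Among the 13, the knockdown falls of RELA (-0.09) and BCL3 (-0.17) were not called with DESeq2 (adjusted p = 0.240 and 0.0631). With the length trend removed, that of RELA was not called either (edgeR adjusted p = 0.329). The 5 that rose and then fell were CXCL8, IKBKE, NFKB1, NFKBIZ and TNFRSF21. Of these, the difference of IKBKE between the rescues (-0.32) was not called with DESeq2 (adjusted p = 0.0737), without mutant rescue replicate 1 (0.0621) or without wild-type rescue replicate 2, where it was -0.15 (0.364). CCL20, PTGS2 and BIRC3 have the signs of these 5, with 2.56 and -0.61 for CCL20, 0.85 and -1.38 for PTGS2 and 0.84 and -0.17 for BIRC3. CCL20 was picked for its rise over the control and PTGS2 for its fall between the rescues. The rise of CCL20 and the fall of PTGS2 thus follow from the choice. The other sign of each does not, but the list was put together with results known. Nothing is read from any of these signs. NFKBIA has 0.07 and 0.32, the former a fragile call, and TNFAIP3 has 0.85 and 0.15, the latter not called.

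**Figure D4:**
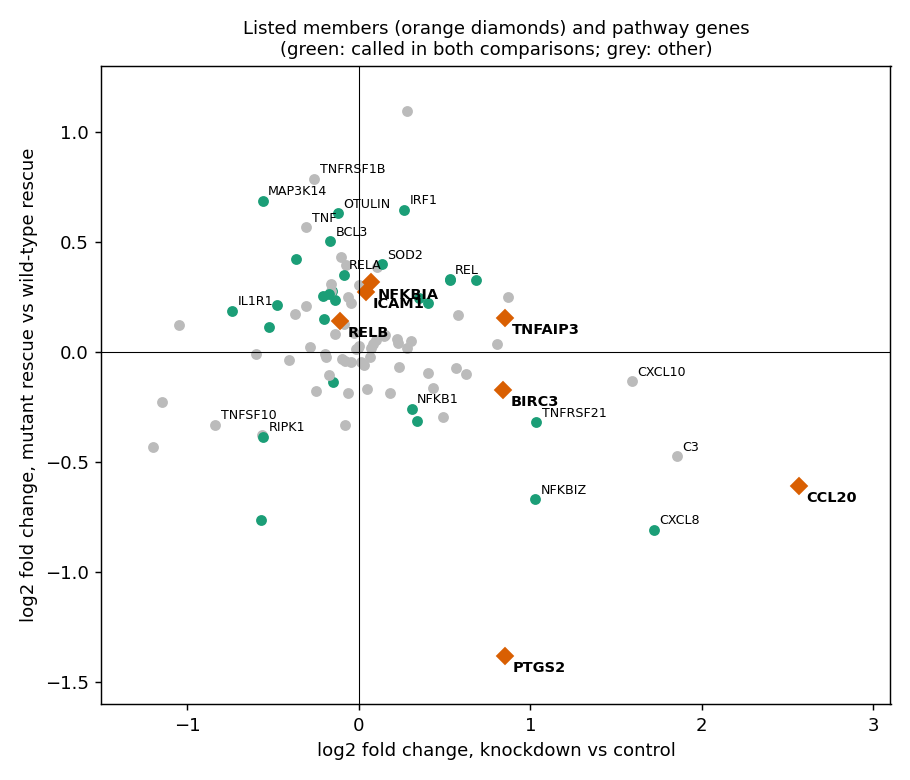
Log2 fold change on knockdown (horizontal) against that of the mutant over the wild-type rescue (vertical) for the 7 members with enough counts (diamonds) and the 89 pathway genes (circles, green where both comparisons were called). CCL20 (2.56 and -0.61), PTGS2 (0.85 and -1.38) and CXCL8 (1.72 and -0.81) lie in the lower right part of the plot. CCL20 was picked for its rise over the control and PTGS2 for its fall between the rescues.

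Likeness of pattern was measured as Pearson's r of log2 CPM over the 8 libraries, among 11149 genes averaging 5 CPM or more; since the 8 libraries form 4 pairs, r mostly follows 4 group levels and is given as a description. The 5 genes most like CCL20 were HADHB (0.997), LDOC1 (0.997), BIRC3 (0.995), GLMP (0.995) and TUBA1A (0.993). BIRC3 is the one among them from the list. The 5 most like PTGS2 were TUBA4A (0.989), CCDC91 (0.981), ARHGAP28 (0.976), SIMC1 (0.975) and BLVRA (0.974), none of which is a listed member or pathway gene. The value between CCL20 and PTGS2 was 0.517.

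METTL3 methylates adenosine within a short motif of which GGACT is a frequent form, so its letters were counted on the sense strand of each member's longest coding transcript (GENCODE 29). No m6A was measured here, and a match does not show a methylated site. The median over 13252 tested genes was 0.935 matches per kilobase. NFKBIA had 2.57 per kilobase (more than 97.0% of those genes), CCL20 2.38 (more than 95.8%, from 2 matches in 839 bases) and TNFAIP3 2.11 (more than 93.1%). PTGS2 had 1.11, ICAM1 1.23 and RELB 0.872. BIRC3 was the lowest of the tested members at 0.385 per kilobase, more than 14.0% of the genes.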

How the data were processed

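The authors deposited raw counts per gene for each of 8 LNCaP libraries beside the length of each gene in bases (a column of other kind). Per the submitters' processing notes CASAVA, STAR 2.5.2b, featureCounts, DESeq2 and hg19 were used, and parameters are not given in the sources used here. Per the labels' protocols, TRIzol was used for the RNA and a stranded messenger RNA kit for the libraries.

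With edgeR 4.0.16 in R 4.3.3, filterByExpr by group (minimum count 10, minimum total 15) kept 15289 of 27140 genes. Libraries were scaled by TMM, and all 8 entered one robust quasi-likelihood fit with a mean for each group. Each of the 6 comparisons was tested two-sided, with Benjamini-Hochberg adjustment over all tested genes, and genes were called at an adjusted p under 0.05. The SE equals the size of the log2 fold change over the root of its F statistic. At 2 libraries against 2, an exact permutation test cannot go below 0.333, so every adjusted p rests on the spread shared across genes. Totals of 15200343 to 17893241 give the depth, and without molecular identifiers a count is not an independent molecule.

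The members and lists were chosen with earlier results of these data known. All 10 members are named, and each list is illustrated by genes whose called rise or fall was among the 3 largest of a comparison, along with METTL3, the genes most like CCL20 and PTGS2 and, chosen after their values were seen, receptors and ligands near 0 and the 5 genes called in opposite directions. Levels of CPM are compared between genes only per kilobase. Alternatives were DESeq2 size factors, no filter, the DESeq2 1.42.0 Wald test, a minimum log2 change of 0.5 and only the groups compared. Others were a replicate block, each library left out and removal of the length trend (lowess in R with a span of 0.3). The steps were tested on simulated data. Promoters came from RefSeq (GRCh38.p14) and transcripts from GENCODE 29, matched by symbol.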

Additional observations from a re-analysis of the deposited data

Results flagged for a closer look

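BIRC3 differed between the rescues, and its changes from the knockdown had opposite signs. The change was 0.06 on the log2 scale with wild-type METTL3 and -0.11 with the mutant, and the difference between them was -0.17 (SE 0.02, edgeR adjusted p = 5.82e-10). Both mutant rescue libraries were below both knockdown libraries, and both wild-type rescue libraries were above them. The wild-type change, barely past the threshold (adjusted p = 0.0438), was not called in 9 alternatives, among them the DESeq2 Wald test (0.255), DESeq2 size factors (0.0628) and the fits without either control or either knockdown library (0.0641 to 0.137), and it was 0.01 (0.837) without wild-type rescue replicate 1. The opposite movement thus rests on a fragile value, and the mutant change was -0.02 (0.610) with the length trend removed.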

How the results depend on the processing

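Across the alternatives, 542 of 587 values for the members stayed, 23 were no longer called, 16 moved and 6 changed sign. A value stayed if it kept its direction and its side of the threshold. For CCL20 and PTGS2, which had no test, it had to keep its direction and lie within the SE of the main value. The sign changed for PTGS2 in the wild-type rescue against the knockdown, -0.03 without knockdown replicate 2 and -0.050 without wild-type rescue replicate 1, and leaving out a library gave -0.050 to 0.26 there. It also changed for values that were not called: ICAM1 on knockdown was -0.19 without control replicate 2, and RELB in the wild-type rescue against the knockdown was -0.032 with the length trend removed, -0.058 without knockdown replicate 1 and -0.072 without wild-type rescue replicate 2. Leaving out a library gave -0.19 to 0.31 for that value of ICAM1 and -0.072 to 0.083 for that of RELB. Of 2308 values for named pathway genes 2167 stayed and 141 were no longer called. A minimum absolute log2 change of 0.5 left 23 of 53 pathway genes on knockdown, 1 of 23 in the wild-type rescue and 16 of 53 in the mutant rescue against the knockdown, 9 of 38 between the rescues, and 21 of 51 and 28 of 65 in the wild-type and mutant rescue against the control. It left 0 of 2 members in the wild-type rescue and 1 of 4 in the mutant rescue against the knockdown, and 0 of 2 between the rescues. In the wild-type rescue against the knockdown, 1 member was called with DESeq2 size factors, without the filter, with the DESeq2 Wald test and with only the groups compared, and 1 to 2 with a library left out. Pathway calls there were 8 by the DESeq2 Wald test (4 rose, 4 fell), 14 with the length trend removed and 10 to 22 with a library left out. In the mutant rescue against the knockdown, 2 members were called by DESeq2 and 2 to 4 with a library left out. Leaving out a library gave 2 to 3 members on knockdown and 3 to 4 in the mutant rescue against the control, and 41 to 53 pathway genes on knockdown, 47 to 53 in the mutant rescue against the knockdown, 30 to 39 between the rescues, and 42 to 51 and 57 to 65 in the wild-type and mutant rescue against the control. With 1 library left in a group, that library is assumed to vary like the others. The cause of these shifts was not tested.

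Same-numbered libraries share only a number: their deviations from the group means had r from -0.0383 to 0.0398. With the replicate number as a replicate block, pathway calls were 53, 24, 53 and 39 in the knockdown against the control, the wild-type rescue against the knockdown, the mutant rescue against the knockdown and between the rescues, and 51 and 65 in the wild-type and mutant rescue against the control. Depth limits the CXC chemokines, PTGS2 and ICAM1 most.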
